A study of Mus musculus with 5 samples.

Results

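Nes, Map2, Nxph3, Crispld1 and Akr1c18 are 5 of the 31053 genes counted in single cells of mouse ventral skin. They were taken by gene symbol, after earlier results of these data had shown that their summed levels in fibroblasts were far lower in Ikkb_cKO than in WT skin. That fall is therefore how the genes were picked. It is given here as a description, with no test, and the report turns on which WT fibroblasts and which other cells held the RNA. Nes, Map2 and Nxph3 are best known from the nervous system, whereas Crispld1 and Akr1c18 are not neural genes, so the 5 are called here by their symbols.

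Nes encodes nestin, an intermediate filament protein of neural stem cells that is also made by pericytes, endothelial cells and some dermal cells of the hair follicle. Map2 encodes a microtubule-associated protein best known from neuronal dendrites, and Nxph3 a secreted neurexophilin, a ligand of the presynaptic alpha-neurexins. Crispld1 encodes a secreted protein of the CAP superfamily, and Akr1c18 a mouse aldo-keto reductase with 20-alpha-hydroxysteroid dehydrogenase activity, which inactivates progesterone.

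The study asked what loss of Ikkb, the kinase that activates NF-kB signalling, does to skin when the loss starts in the Prx1 lineage. Ikkb_cKO mice carried Prx1Cre and floxed Ikkb alleles (Prx1Cre+Ikkbf/f), and WT mice were wild type. Both were C57BL/6J mice at postnatal day 28. Prx1Cre is active in limb bud and ventral body wall mesenchyme and its descendants, so the deletion is not limited to skin fibroblasts. Skin was digested, and live single cells were sorted and captured by droplet with 3' end counting. There were 3 Ikkb_cKO and 2 WT libraries, each a pool of 2 mice, and the library is the replicate.

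The Ikkb_cKO libraries held 2163166, 2350022 and 9738296 UMIs (unique molecular identifiers, 1 per captured RNA molecule), and the WT libraries 14659158 and 16773096. After filtering, 10557 of 11084 barcodes were kept, and no 2 libraries shared more than 17 barcodes. Of 32 clusters, 10 were fibroblast-like by their markers and held 5556 cells, 518, 483 and 866 from the Ikkb_cKO libraries and 1786 and 1903 from the WT libraries. Because these cells were named by markers, levels of fibroblast genes describe the class and do not check its name. Dcn was detected in 96.1 to 98.6% of fibroblast-like cells in the Ikkb_cKO libraries and in 99.6 and 100% in the WT libraries. Pdgfra was detected in 32.6, 33.5 and 39.95% in Ikkb_cKO and in 63.05 and 66.7% in WT, at unequal depth. At most 0.621% of the cells in any library had a UMI of the leukocyte gene Ptprc. The median fibroblast-like cell had 1547, 1754 and 2445.5 UMIs in Ikkb_cKO and 4823 and 5319 UMIs in WT, so shares of cells are also given at equal depth. Most Ikkb_cKO fibroblast-like cells lay in clusters 0, 4 and 16, which held 4, 0 and 291 WT cells, so the class is compared between genotypes across clusters that differ. Ikkb_cKO library 3 stood apart from the others. Counts of fibroblast-like cells differed by a chi-square per degree of freedom of 1.45 between Ikkb_cKO libraries 1 and 2, 14.3 and 15.0 between either and library 3, and 4.84 between the WT libraries. Ikbkb itself stood at 16.3, 21.2 and 15.2 CPM (counts per 1000000 UMIs of the cells named) in Ikkb_cKO and 14.5 and 18.2 in WT fibroblast-like cells. That is no check of the labels, since 3' end reads need not come from a deleted exon.

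All 5 genes code for protein. In GRCm38 (GENCODE vM21), Nes spans bases 87971078 to 87980451 of chromosome 3, Map2 spans 66175273 to 66442583 of chromosome 1, and Crispld1 spans 17727045 to 17766344 of that chromosome, all read from the plus strand. Nxph3 (chromosome 11, 95509845 to 95514570) and Akr1c18 (chromosome 13, 4132615 to 4150654) are read from the minus strand. No pair of them is adjacent. The promoters of Nes and Map2 are shown because these genes had nearly the same pattern over WT fibroblasts, and that of Akr1c18 because its pattern was another one. Each is 300 bases of RefSeq sequence (GRCm38.p6), read 5' to 3' in the direction of the gene, from 250 bases before the transcription start to 50 bases after it, at chr3:87970843-87971142 (plus strand), chr1:66175079-66175378 (plus strand) and chr13:4150597-4150896 (minus strand). Capitals mark GC boxes, GGGCGG on either strand.
Nes: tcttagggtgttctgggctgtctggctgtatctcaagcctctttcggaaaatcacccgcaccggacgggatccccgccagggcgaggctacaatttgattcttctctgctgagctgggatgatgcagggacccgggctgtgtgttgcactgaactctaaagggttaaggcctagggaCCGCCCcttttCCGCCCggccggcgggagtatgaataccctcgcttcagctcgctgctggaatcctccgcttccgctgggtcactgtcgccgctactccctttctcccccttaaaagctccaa
Map2: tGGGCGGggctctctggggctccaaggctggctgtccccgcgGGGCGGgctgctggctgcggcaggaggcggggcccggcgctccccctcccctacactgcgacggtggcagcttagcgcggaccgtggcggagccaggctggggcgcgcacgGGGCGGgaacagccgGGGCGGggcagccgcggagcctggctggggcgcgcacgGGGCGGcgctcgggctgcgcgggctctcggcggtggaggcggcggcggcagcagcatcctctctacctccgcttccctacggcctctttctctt
Akr1c18: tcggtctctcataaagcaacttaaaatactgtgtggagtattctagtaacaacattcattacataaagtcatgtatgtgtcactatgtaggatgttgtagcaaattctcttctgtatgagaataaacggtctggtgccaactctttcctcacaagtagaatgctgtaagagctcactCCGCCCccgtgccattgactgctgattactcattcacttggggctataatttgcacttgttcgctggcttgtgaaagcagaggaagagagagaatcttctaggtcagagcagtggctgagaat
The 300 bases held 5 GC boxes for Map2, 2 for Nes and 1 for Akr1c18, and 35.7% of 32851 mouse promoters of this length held at least 1. The G and C content was 58.7% for Nes, 77.7% for Map2 and 42.3% for Akr1c18, against a median of 52.7%. On both strands, none of the 3 held a kB motif (8.46% of promoters did), the AP-1 letters TGANTCA (7.81%), TATAAA (13.6%) or TGACG (20.8%). The letters ACAAT occurred once in the Nes promoter (31.0% of promoters), and the palindromic E-box CANNTG at 2 places in that of Akr1c18 (72.3%). Nxph3 and Crispld1 are named without a promoter.

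In fibroblast-like cells, RNA of Nes, Map2 and Nxph3 was nearly absent from Ikkb_cKO libraries, and that of Crispld1 and Akr1c18 was present at a low level. Nes had 1, 1 and 3 UMIs in the Ikkb_cKO libraries (1.02, 0.924 and 1.17 CPM), against 465 and 586 UMIs in WT (44.6 and 49.3 CPM). Map2 had 0, 2 and 4 UMIs in Ikkb_cKO (0, 1.85 and 1.56 CPM), against 321 and 432 in WT (30.8 and 36.3 CPM). The count of 0 allows up to 3.05 CPM. Nxph3 had 1 UMI in each Ikkb_cKO library (1.02, 0.924 and 0.389 CPM), against 383 and 517 in WT (36.7 and 43.5 CPM). Every WT library thus stood far above every Ikkb_cKO library for these 3 genes, and no Ikkb_cKO library stood out among the 3.

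Crispld1 had 8, 15 and 13 UMIs in Ikkb_cKO (8.15, 13.9 and 5.06 CPM), against 1403 and 1747 in WT (135 and 147 CPM). Akr1c18 had 15, 21 and 8 UMIs in Ikkb_cKO (15.3, 19.4 and 3.11 CPM), against 1441 and 1739 in WT (138 and 146 CPM). Here too the genotypes did not overlap, and for Akr1c18 the lowest library was Ikkb_cKO 3. In bulk sums such as these, fewer cells of a type and less RNA per cell cannot be told apart.

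**Figure D1:**
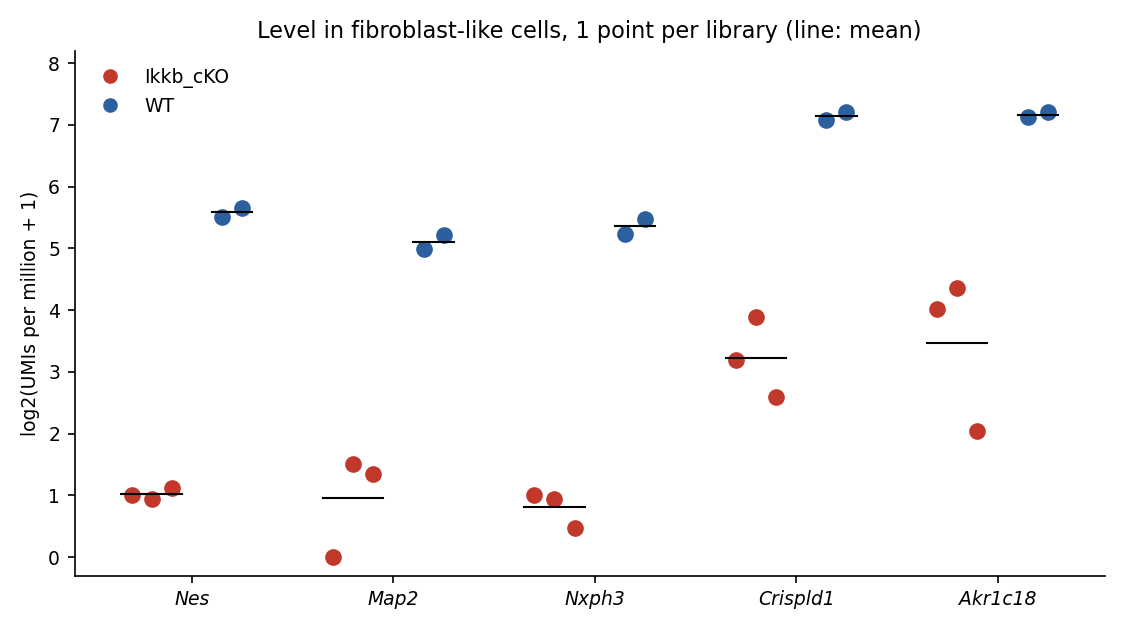
Level of each gene in fibroblast-like cells, as log2(CPM + 1), with 1 point per library and a line at the mean of the 3 Ikkb_cKO (left) or 2 WT libraries (right). WT libraries lie between 30.8 and 49.3 CPM for Nes, Map2 and Nxph3 and between 135 and 147 for Crispld1 and Akr1c18, above every Ikkb_cKO library.

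The WT to Ikkb_cKO ratio of summed levels was 43.6 for Nes (95% counting interval 18.6 to 135), 26.1 for Map2 (11.9 to 71.2) and 62.3 for Nxph3 (21.2 to 303). It was 18.2 for Crispld1 (13.1 to 25.99) and 15.0 for Akr1c18 (11.2 to 20.7). These intervals cover counting error only. In the edgeR fit over all genes, the log2 fold change of Ikkb_cKO over WT was -5.44 (SE 0.27) for Nes, -4.70 (SE 0.42) for Map2, -5.91 (SE 0.35) for Nxph3, -4.12 (SE 0.31) for Crispld1 and -3.74 (SE 0.55) for Akr1c18. They ranked between 10 and 34 from the lowest of 10454 genes tested, of which 18.2% were lower in Ikkb_cKO at an adjusted p under 0.05. All 5 passed the filter on low counts through the WT libraries, and since they were picked for this contrast nothing is read from these ranks.

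The share of fibroblast-like cells with a UMI showed the same order. For Nes it was 0.193, 0.207 and 0.346% in Ikkb_cKO and 11.9 and 13.1% in WT. For Crispld1 it was 1.35, 2.90 and 1.39% in Ikkb_cKO and 25.3 and 27.2% in WT, and for Akr1c18 2.12, 2.07 and 0.577% in Ikkb_cKO and 15.0 and 16.3% in WT. Because WT cells were deeper, each cell was also thinned to 1000 UMIs, which left out 143, 109 and 133 Ikkb_cKO cells and 86 and 82 WT cells with fewer. Nes, Map2 and Nxph3 were then in none of the 375, 374 and 733 Ikkb_cKO cells, which allows shares of up to 0.8, 0.802 and 0.409%. In thinned WT cells, Nes was in 2.24 and 3.24%, Map2 in 2.00 and 2.20% and Nxph3 in 1.88 and 2.53%. Thinned shares of Crispld1 were 1.33, 1.07 and 0.819% in Ikkb_cKO and 8.41 and 8.62% in WT, and those of Akr1c18 1.60, 1.34 and 0.136% in Ikkb_cKO and 7.41 and 8.18% in WT. Lymphocyte-like cells, with medians of 1708 to 2542 UMIs, were looked at for comparison. They held Nes and Nxph3 in 0% of Ikkb_cKO cells in all 3 libraries and in 0 and 0.84% (1 of 119 cells) of WT cells. Map2 was in at most 0.975% of them. The 0.975% for Map2 was in Ikkb_cKO library 3, above the 0.346% of fibroblast-like cells of that library. All 4 Map2 UMIs of those fibroblast-like cells lay in cluster 16. Whether the Map2 UMIs of either class are free RNA was not tested. Lymphocyte-like cells of the Ikkb_cKO libraries had no UMI of Nes or Nxph3, whose few UMIs in Ikkb_cKO fibroblasts are placed by cluster further on.

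In WT skin, Nes, Map2 and Nxph3 were held by the same 3 of the 10 fibroblast-like clusters. Cluster 5 was led by Fabp4, a fatty acid carrier of adipocyte precursors, with Car3, Tagln and Cited1. Cluster 17 was led by Pla2g7 and Crabp1, a retinoic acid carrier of the upper dermis, and cluster 30 by the cell cycle genes Ube2c, Pclaf and Birc5. Clusters 5, 17 and 30 were grouped after these levels were seen, and paired values below are those of WT libraries 1 and 2. Together they held 98.5 and 98.3% of the Nes, 98.4 and 98.1% of the Map2 and 99.2 and 98.6% of the Nxph3 UMIs of WT fibroblast-like cells, in 32.7 and 34.8% of the cells and 50.8 and 51.3% of all UMIs. At other cluster resolutions, cell filters and doublet settings the clusters above 20 CPM held 97.5 to 99.7% of these UMIs.

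Nes stood at 88.8 and 88.9 CPM in WT cluster 5, 85.2 and 109 in cluster 17 and 72.0 and 103 in cluster 30. It stayed at or below 2.72 in clusters 1, 13, 19 and 26 and at 0 and 8.58 in cluster 16. The 3 high clusters did not differ from each other beyond the spread between libraries. Map2 stood at 47.9 and 59.8 in cluster 5, at 95.9 and 99.0 in cluster 17 and at 65.8 and 72.0 in cluster 30, so cluster 17 was the highest in both libraries. Nxph3 stood at 67.4 and 84.1 in cluster 5, at 92.4 and 83.2 in cluster 17 and at 57.6 and 79.7 in cluster 30. Cluster 17 lay above cluster 30 in both libraries, and the range of cluster 5 overlapped with both. Outside the 3 clusters, Map2 and Nxph3 stayed at or below 3.88 and 2.14 CPM.

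Crispld1 was spread more widely. It was highest in WT cluster 17, at 356 and 306 CPM, followed by cluster 5 (166 and 200), cluster 30 (134 and 170) and cluster 19 (151 and 154). Cluster 30 overlapped with both of the others, and cluster 5 lay above cluster 19 in both libraries. Cluster 19, led by Thbs4, Hmcn2 and Cilp, held almost none of the other 4 genes, with Akr1c18 at 19.2 and 12.2 and the rest at or below 2.72. Cluster 26, led by Akr1c18 itself with Sbsn and the fascia gene Pi16, held Crispld1 at 65.1 and 77.1. Clusters 5, 17 and 30 together held 76.7 and 77.6% of the Crispld1 UMIs.

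Akr1c18 had another order of clusters. Cluster 26 held it at 671 and 744 CPM, in 60.2 and 69.1% of cells, which made up 65.1 and 77.1% of its UMIs in WT fibroblast-like cells. Cycling cluster 30 came next at 257 and 159, then cluster 5 at 92.1 and 69.5, and these 3 levels did not overlap. In cluster 17, where Crispld1 was highest, Akr1c18 was at 5.38 and 2.15. Since Akr1c18 leads cluster 26, its height there is a description of that cluster.

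**Figure D2:**
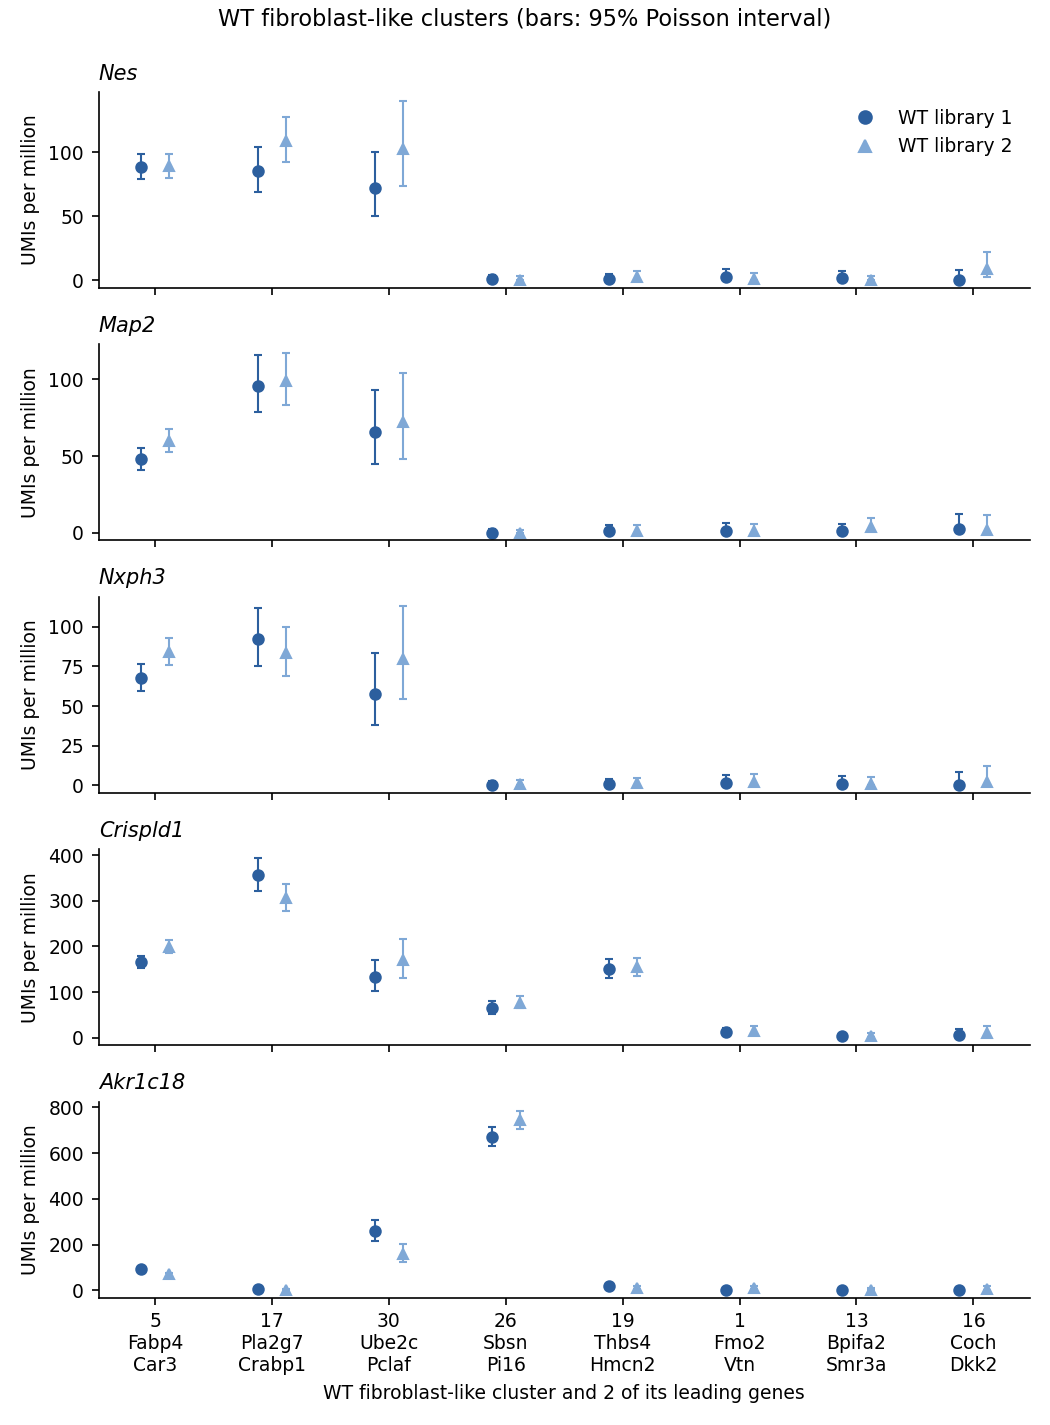
Level of each gene in 8 WT fibroblast-like clusters, in CPM, with 1 point for each WT library and bars for the 95% Poisson interval, named by number and 2 leading genes. Nes, Map2 and Nxph3 stand between 47.9 and 109 in clusters 5, 17 and 30 and near 0 elsewhere, Crispld1 also in clusters 19 and 26, and Akr1c18 is highest in cluster 26.

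Finer clustering split some of these groups. Within WT cluster 5, a group of 47 and 66 cells led by Acta2, Ccl12 and Tnc held Nes at 238 and 210 CPM, Map2 at 67.5 and 99.3 and Nxph3 at 152 and 167. The finer clustering placed it together with all 35 and 29 WT cells of cycling cluster 30, and Pclaf was also among its leading genes. Its cells were deeper, with medians of 11598 and 14226 UMIs against 9683 and 9151 in the larger group described next. The larger group of 285 and 321 cells, led by Clec3b, Ptx3 and Sfrp2, held Nes at 62.7 and 54.6, Map2 at 46.2 and 51.6 and Nxph3 at 51.1 and 62.8. Akr1c18 ran the other way, at 28.7 and 50.2 in the first group and 113 and 82.7 in the second. Within WT cluster 19, Crispld1 was at 250 and 221 in a group led by Ptn, Pappa2 and Lgr5, and at 35.7 and 37.5 in one led by Ccl11 and Thbs4. Acta2 and Tagln are also markers of pericytes and smooth muscle, which express Nes. Over 16 such markers, the summed level in WT was 717 and 725 CPM in cluster 5, 272 and 354 in cluster 17 and 681 and 1290 in cluster 30, where Nes was high. It was 514 and 547 in cluster 16 and 362 and 334 in cluster 1, where Nes was low. Summed over all fibroblast-like cells it was 127, 95.2 and 374 in Ikkb_cKO, with 6, 7 and 1 of 16 markers at 0, and 421 and 444 in WT, with 3 at 0 in each. The part of these markers in the level of Nes was not tested.

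The 3 genes also met in single cells. Of the WT fibroblast-like cells with a Nes UMI, 53.5 and 59.8% also had one of Map2 and 53.1 and 61.0% one of Nxph3. The number of cells with both was 4.60 and 4.57 times the product of the 2 shares for Nes with Map2. Within cluster 5 alone the ratio was 1.67 and 1.89, and within cluster 17 it was 1.35 and 1.28, which includes differences in depth between cells. All 3 were detected in 73 of 1786 and 106 of 1903 WT cells, and in no Ikkb_cKO cell. Nes with Akr1c18 stood at 0.907 and 0.592 times the product of their shares.

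Levels were compared over the 7 clusters with at least 30 cells in both WT libraries (14 points, which share libraries and depth). Cluster 30, with 35 and 29 WT cells, was not among them, though Nes and Akr1c18 were both high there. Pearson's r of log2 levels was 0.98 for Nes with Map2, 0.99 for Nes with Nxph3 and 0.99 for Map2 with Nxph3. It was 0.70 to 0.72 for Crispld1 with each of these, 0.30 for Crispld1 with Akr1c18, and -0.11 to -0.03 for Akr1c18 with Nes, Map2 or Nxph3. The 4 genes most like Nes were Nxph3, Sdc1, a cell surface proteoglycan, Frem1, a basement membrane protein, and Palld, an actin scaffold (r 0.98 to 0.99). Those most like Map2 were Gcnt4, Gm45716, Nxph3 and Palld, and those most like Nxph3 were Nes, Map2, Gm45716 and Unc5a, a netrin receptor, each with r of 0.99. For Crispld1 they were Pcgf2, Fbn2, Ptgis and Dpysl3 (r 0.93 to 0.98), and for Akr1c18 Efhd1, Dph3, Sbsn and Aldh1a3 (r 0.91 to 0.96).

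These neighbours were picked from WT cells, whose counts also enter the comparison below. Those of Nes, Map2 and Nxph3 follow clusters 5 and 17, in which Ikkb_cKO had only 34 and 6 cells. Their lower sums were thus largely set by the picking and are a description. Leaving out the 5 genes themselves, all 6 neighbours of Nes, Map2 and Nxph3 were lower in Ikkb_cKO fibroblast-like cells at an edgeR adjusted p under 0.05, with log2 fold changes of -4.94 for Gm45716, -3.08 for Gcnt4, -2.63 for Frem1, -2.26 for Sdc1, -1.71 for Unc5a and -1.37 for Palld. Of the 8 neighbours of Crispld1 and Akr1c18, 4 were lower, Sbsn, Pcgf2, Dpysl3 and Dph3, and none was higher. Over all genes tested, 18.2% were lower and 17.6% higher. Fewer neighbours of both sets were called with either WT library left out. Gm45716 stood at 0, 0.924 and 1.56 CPM in Ikkb_cKO and 33.8 and 32.2 in WT fibroblast-like cells, and Sdc1 at 45.8, 48.0 and 35.8 in Ikkb_cKO and 190 and 210 in WT. Without clusters 5, 17 and 30, only 3 of the 6 neighbours of Nes, Map2 and Nxph3 could be tested, and none of these 3 was lower. Sdc1 turned to 1.29 (edgeR adjusted p = 0.0344), Palld to 0.53 (edgeR adjusted p = 0.0470) and Frem1 to 1.06 (edgeR adjusted p = 0.299). For Gm45716, Gcnt4 and Unc5a the part of these clusters was not tested. Aldh1a3, a retinal dehydrogenase that ran with Akr1c18 over WT clusters, stood at 62.1, 79.5 and 13.6 in Ikkb_cKO and 15.7 and 14.5 in WT (log2 fold change 1.64, SE 0.67, edgeR adjusted p = 0.112). Fbn2, which ran with Crispld1, stood at 207, 182 and 50.2 in Ikkb_cKO and 39.0 and 57.3 in WT (log2 fold change 1.54, SE 0.60, edgeR adjusted p = 0.0993). For both genes Ikkb_cKO library 3 lay within or just below the WT values and the other Ikkb_cKO libraries above it. Without library 3 both passed the threshold (2.18, edgeR adjusted p = 1.91e-11 for Aldh1a3, and 1.95, edgeR adjusted p = 4.82e-05 for Fbn2).

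Only 49 Ikkb_cKO cells lay in clusters 5, 17 and 30 (20, 18 and 11 by library), against 584 and 663 WT cells. In these 49 cells, Nes had 3 UMIs, or 15.5 CPM (95% Poisson interval 3.20 to 45.4), against 90.7 (85.3 to 96.4) in the summed WT cells of the same clusters. Map2 had 2 UMIs, 10.4 CPM (1.25 to 37.4), against 64.9 (60.3 to 69.8) in WT, and Nxph3 2 UMIs, 10.4 (1.25 to 37.4), against 78.1 (73.1 to 83.4) in WT. The intervals do not meet, but they cover counting error over summed libraries and there are too few cells for a test over libraries. In all other clusters the genes were low in both genotypes, Nes at 0.450 CPM (0.0545 to 1.63) in Ikkb_cKO and 1.56 (0.907 to 2.49) in WT. With clusters 5, 17 and 30 left out, Nes, Map2 and Nxph3 no longer passed the filter on low counts.

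Summed over the other clusters, Crispld1 and Akr1c18 also differed between genotypes, though these sums hold unlike mixes of clusters. There Crispld1 stood at 7.71, 15.0 and 4.73 CPM in Ikkb_cKO and 63.7 and 67.7 in WT, and Akr1c18 at 16.5, 21.1 and 3.15 in Ikkb_cKO and 189 and 237 in WT. Their log2 fold changes without clusters 5, 17 and 30 were -3.15 and -4.35. Cluster 19 allowed a closer look, with 34, 41 and 20 Ikkb_cKO cells and 247 and 257 WT cells. In it, Crispld1 stood at 71.4, 85.9 and 68.9 CPM in Ikkb_cKO (5, 7 and 5 UMIs) and 151 and 154 in WT. The Ikkb_cKO libraries were all lower. The thinned shares of cluster 19 cells with Crispld1 were 10.0 and 7.41% in Ikkb_cKO libraries 1 and 2 and 10.5 and 9.02% in WT. In cluster 1, the other cluster with 20 or more cells in all 5 libraries, Crispld1 was low and not lower in Ikkb_cKO, at 10.6, 21.2 and 11.5 CPM in Ikkb_cKO (1, 2 and 1 UMIs) and 11.8 and 15.8 in WT (10 and 16 UMIs). Its thinned shares there were 3.03, 3.13 and 3.57% in Ikkb_cKO, which is 1 cell in each library, and 1.42 and 0.930% in WT. Of the 2344 WT Akr1c18 UMIs in these other clusters, 2279 lay in the 578 WT cells of cluster 26. Ikkb_cKO had 6 cells in cluster 26, with 2 Akr1c18 UMIs. In clusters 1, 13, 16 and 19, Akr1c18 stood at or below 15.71 CPM in the summed WT libraries. It had no UMI in Ikkb_cKO cells of these 4 clusters, which allows up to 14.19 CPM. A difference in Akr1c18 outside cluster 26 was not tested.

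**Figure D3:**
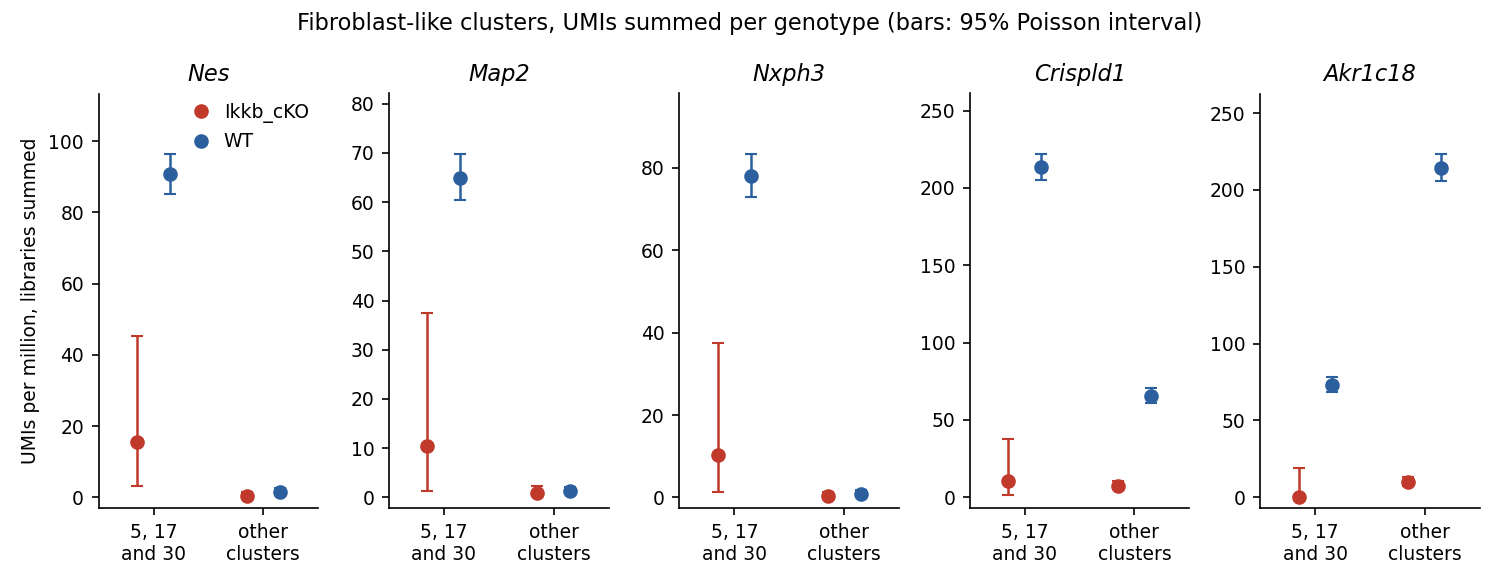
Level of each gene in clusters 5, 17 and 30 and in all other fibroblast-like clusters, in CPM over the summed libraries of Ikkb_cKO (left) and WT (right), with 95% Poisson intervals. Nes, Map2 and Nxph3 are high in WT clusters 5, 17 and 30 alone. Crispld1 (7.65 in Ikkb_cKO, 65.8 in WT) and Akr1c18 (9.91 in Ikkb_cKO, 215 in WT) also differ between genotypes in the sum of the other clusters. Of the WT Akr1c18 UMIs in that sum, 2279 of 2344 lie in cluster 26, which holds 6 Ikkb_cKO cells.

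What Akr1c18 RNA remained in Ikkb_cKO fibroblasts lay mostly in clusters that WT skin hardly had. Of 44 UMIs, 31 were in cluster 4, led by Ltc4s, Mrgprg and Col6a5, at 13.8, 31.1 and 44.5 CPM in the 3 libraries, and 11 in cluster 0, led by Car4, Hk2 and Emb, at 31.3, 14.4 and 0. Of 36 Crispld1 UMIs, 17 were in cluster 19, and 1 in cluster 4. Nes, Map2 and Nxph3 had no UMI in the 586 cells of cluster 0, which allows up to 2.21 CPM, or in the 481 cells of cluster 4, which allows up to 2.59.

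Outside fibroblasts, Nes was found in vessel cells of both genotypes. In mural-like cells (pericytes and smooth muscle) it had 5, 2 and 3 UMIs in 3, 5 and 21 Ikkb_cKO cells, or 435, 156 and 29.0 CPM, and 14 and 26 UMIs in 55 and 56 WT cells, or 105 and 175 CPM. In endothelial-like cells it stood at 0, 133 and 33.5 CPM in 9, 10 and 42 Ikkb_cKO cells and at 108 and 86.9 in 72 and 79 WT cells. The genotypes overlapped in both classes, and the Ikkb_cKO levels rest on 10 and 8 UMIs. In cluster 27, Schwann-like by its markers, with Myog and Dct also among its leading genes, Nes stood at 0, 44.8 and 49.9 in Ikkb_cKO and 49.1 and 42.6 in WT. Nes was low in myeloid-like cells, at 0, 0 and 1.56 in Ikkb_cKO and 1.51 and 1.67 in WT.

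Map2 and Nxph3 were sparse in other cells. Map2 in the Schwann-like cluster stood at 0, 22.4 and 49.9 CPM in Ikkb_cKO and 24.5 and 21.3 in WT, on 5 and 8 UMIs. Its largest count elsewhere was 71 UMIs in the 306 keratinocyte-like cells of Ikkb_cKO library 3 (24.4 CPM), 56 of them in cluster 28, led by Krtdap and Krt77, genes of differentiating epidermis. The other Ikkb_cKO libraries had 8 and 10 keratinocyte-like cells with no Map2 UMI, and the WT libraries 14 and 29 cells with 2 and 0 UMIs, too few to compare. Nxph3 had no more than 2 UMIs in any library of any class other than fibroblasts.

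Crispld1 outside fibroblasts was at 0, 0 and 6.70 CPM in Ikkb_cKO and 22.7 and 33.1 in WT endothelial-like cells, on 1 and 12 UMIs. In lymphocyte-like cells of WT library 2, 14 UMIs came from 1 cell. Akr1c18 was found in myeloid-like cells of all 5 libraries, at 13.3, 17.3 and 20.3 CPM in Ikkb_cKO (5, 7 and 39 UMIs) and 18.1 and 25.05 in WT (48 and 75 UMIs). Cluster 6, led by Retnla and the class II gene Cd74, held all of these UMIs in Ikkb_cKO, and 35 of 48 and 66 of 75 in WT. In keratinocyte-like cells, 121 Akr1c18 UMIs of WT library 2 lay in 4 cells, 83 and 29 of them in 2 cells, and 47 of 51 UMIs of Ikkb_cKO library 3 in 2 cells. In lymphocyte-like cells Akr1c18 had no UMI, which allows up to 1.22 CPM in Ikkb_cKO and 4.38 in WT.

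**Figure D4:**
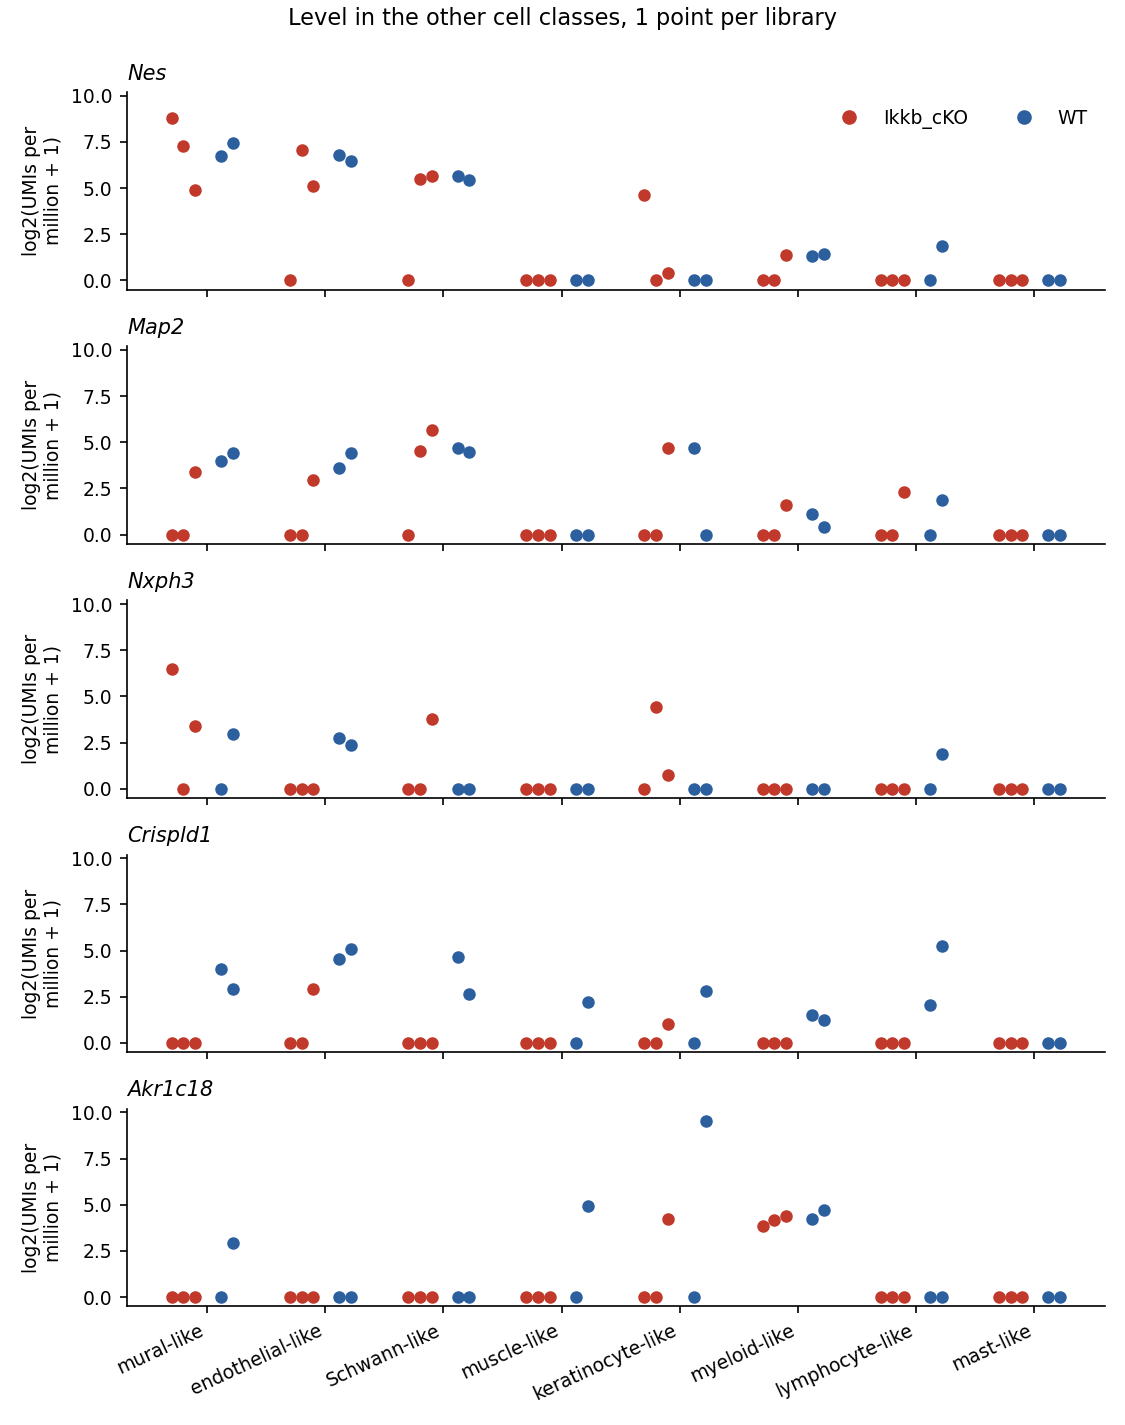
Level of each gene in the other cell classes, as log2(CPM + 1), with 1 point per library (Ikkb_cKO left, WT right). Nes is present in mural-like and endothelial-like cells of both genotypes, and Akr1c18 in myeloid-like cells of all 5 libraries, while many other points rest on fewer than 5 UMIs.

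The other classes were not used to pick the genes, so they allow a test where every library had at least 20 cells, in myeloid-like and lymphocyte-like cells. Of the 5 genes, Akr1c18 alone passed the filter on low counts in myeloid-like cells, where 17.8% of 9072 genes passed an adjusted p of 0.05, 9.34% lower and 8.5% higher in Ikkb_cKO. Its log2 fold change was -0.21 (SE 0.30, 95% interval -0.86 to 0.45, edgeR adjusted p = 0.676). Whether the difference between genotypes is itself another one in myeloid-like than in fibroblast-like cells was not tested. In lymphocyte-like cells none of the 5 passed the filter, and 10.9% of 5139 genes were called, 4.18% lower and 6.73% higher. None of the 5 genes was called in either class by edgeR or by DESeq2, and 0 had an unadjusted edgeR p under 0.05 among those that passed the filter. With no filter on low counts edgeR called 1, Crispld1 in lymphocyte-like cells, where 14 of its 15 WT UMIs came from 1 cell.

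Genes of the same families and pathways were not lost as a group. The 7 lists related to the 5 genes, without the genes themselves, named 245 genes, of which 130 could be tested in fibroblast-like cells. Of these, 22 were lower in Ikkb_cKO (16.9%, against 18.2% of all genes tested) and 31 were higher (23.8%, against 17.6%), with a median log2 fold change of 0.15 against 0.04 over all genes. Each of the called genes passed an edgeR adjusted p of 0.05. With either WT library left out, fewer of the listed genes were called in both directions, and fewer genes were called over all genes too. The count of higher genes was 20 without clusters 5, 17 and 30, and the count of lower genes was 40 without Ikkb_cKO 3. Shares over all genes at these settings are not given, so nothing about the lists is read from these changes.

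Of 33 microtubule and cytoskeleton genes tested, 7 were lower and 10 higher (median 0.12). Stmn1, a microtubule destabiliser, stood at 20.4, 19.4 and 16.3 CPM in Ikkb_cKO and 140 and 116 in WT (log2 fold change -2.83, SE 0.18, edgeR adjusted p = 0.00108). Marcksl1 stood at 34.62, 35.1 and 35.02 in Ikkb_cKO and 138 and 130 in WT (-1.96, SE 0.14, edgeR adjusted p = 0.00119), and was not past the threshold without clusters 5, 17 and 30 (-0.51, edgeR adjusted p = 0.0708). Its relative Marcks, an actin-binding substrate of protein kinase C, rose to 1666, 1559 and 1341 in Ikkb_cKO, against 418 and 410 in WT (1.85, edgeR adjusted p = 0.00119). The alpha-tubulin Tuba1c was also higher (1.60, edgeR adjusted p = 0.00239). Among other microtubule-associated proteins, Map1b fell by 0.57 on the log2 scale (edgeR adjusted p = 0.0229), though without clusters 5, 17 and 30 it was at -0.13 (edgeR adjusted p = 0.574) and the call was lost in 5 of 18 alternatives. Map4 stood at 101, 112 and 98.8 in Ikkb_cKO and 108 and 115 in WT (edgeR adjusted p = 0.452). Map1a, Map1s, Map6, Map7 and Map9 did not pass the threshold. Mapt, the neuronal tau gene, was at 0 in all Ikkb_cKO libraries and at 0.288 and 0 in WT.

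Of 9 intermediate filament genes and partners tested, 3 were lower and 3 higher (median -0.27). Vim, the filament protein of mesenchymal cells with which nestin assembles, stood at 2633, 2433 and 2722 CPM in Ikkb_cKO and 5155 and 4922 in WT (log2 fold change -0.99, SE 0.11, edgeR adjusted p = 0.00229). Nefl, a neurofilament subunit, went the other way, at 47.9, 23.1 and 2.72 in Ikkb_cKO and 0.480 and 0.504 in WT (5.32, SE 1.27, edgeR adjusted p = 0.0255), with library 3 far below the other Ikkb_cKO libraries and the call lost in 6 of 18 alternatives. The other neural filament genes Nefm, Ina, Prph and Gfap stayed at or below 0.576 in every library.

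None of the 9 neurexin, neurexophilin and synaptic adhesion genes tested was lower, and 3 were higher (median 0.37). Chl1, a cell adhesion molecule of neurons and glia, stood at 12.2, 8.31 and 28.8 CPM in Ikkb_cKO and 0.576 and 1.35 in WT (log2 fold change 4.18, SE 0.64, edgeR adjusted p = 0.00534). Nrcam (1.56, edgeR adjusted p = 0.00539) and Ncam1 (1.09, edgeR adjusted p = 0.0151) were the others. Without clusters 5, 17 and 30, Nrcam was at 0.63 and not past the threshold (edgeR adjusted p = 0.148), and Ncam1 was at 0.82 (edgeR adjusted p = 0.0488). The neurexophilins Nxph1 and Nxph4 stayed at or below 6.62 and Nxph2 at 0. Nrxn2, a neurexin gene, stood at 2.04, 3.69 and 17.9 in Ikkb_cKO and 2.97 and 2.27 in WT, and did not pass the filter.

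Of 36 axon guidance and neurotrophic genes tested, 3 were lower and 4 higher (median 0.30), and of 14 neural progenitor regulators, 1 was lower and 5 were higher (median 0.61). The growth factors Mdk and Ptn were lower (log2 fold changes -1.66 and -0.83, edgeR adjusted p = 0.00316 and 0.00409), and Mdk was at -0.60 without clusters 5, 17 and 30. Ntn4, a netrin, was higher at 17.3, 22.2 and 19.8 in Ikkb_cKO, against 3.74 and 4.12 in WT (2.30, edgeR adjusted p = 0.00186), and so was Sema3b (2.05, edgeR adjusted p = 0.0158). Ntn4 was at 1.34 with thinned cells (edgeR adjusted p = 0.0599) and at 1.45 without clusters 5, 17 and 30, where Sema3b was at 1.29 (edgeR adjusted p = 0.0924). Sox11, a transcription factor of neural precursors, stood at 21.4, 8.31 and 35.4 in Ikkb_cKO and 3.07 and 2.02 in WT (3.18, edgeR adjusted p = 0.00921). Sox9 (1.21, edgeR adjusted p = 0.0304) and Notch2 (0.69, edgeR adjusted p = 0.0349) were higher too, with the call lost in 7 of 18 alternatives for Sox9 and 6 of 18 for Notch2, thinned cells among them (edgeR adjusted p = 0.278 and 0.181). Id3 fell by 0.73 on the log2 scale (edgeR adjusted p = 0.0130).

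**Figure D5:**
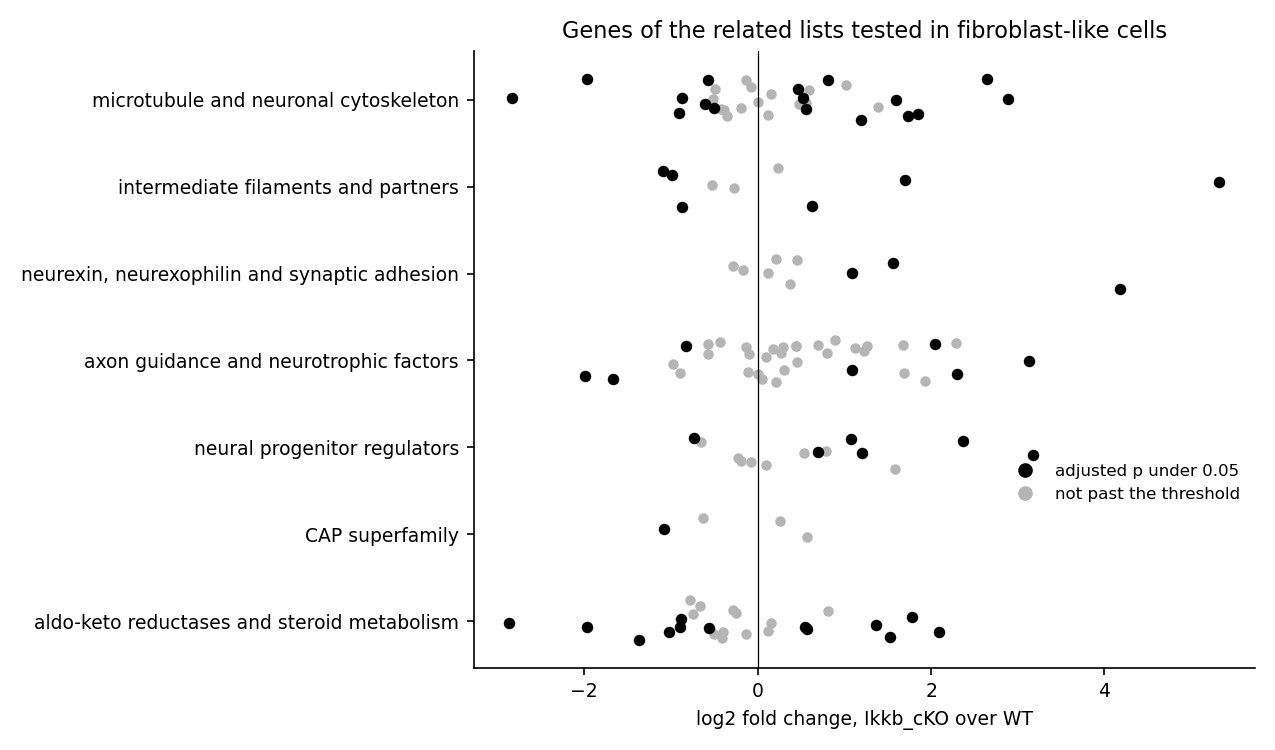
Log2 fold change (Ikkb_cKO over WT) in fibroblast-like cells of the genes tested in 7 lists related to the 5 genes, without those genes, with 1 point per gene, black where the edgeR adjusted p was under 0.05 and grey otherwise. Called genes lie on both sides of 0 in most lists, 22 lower and 31 higher over all 130 genes.

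Crispld1 and Akr1c18 were picked for large falls, so the fold changes of their relatives are given with no comparison of size. Crispld2, the nearest relative of Crispld1 by name, stood at 36.7, 24.9 and 127 CPM in Ikkb_cKO and 45.0 and 44.1 in WT (log2 fold change 0.57, SE 0.66, edgeR adjusted p = 0.533), and its direction turned without Ikkb_cKO 3. Of 4 CAP superfamily genes tested, only Pi16 was called, at 166, 163 and 320 in Ikkb_cKO and 443 and 468 in WT (-1.08, SE 0.33, edgeR adjusted p = 0.0451), and Pi16 also leads cluster 26. Its call was lost in 8 of 18 alternatives, among them those without Ikkb_cKO 1, Ikkb_cKO 2, WT 1 or WT 2 (edgeR adjusted p = 0.106 to 0.204), and its log2 fold change was -2.09 without clusters 5, 17 and 30 (edgeR adjusted p = 0.00548). Of 25 aldo-keto reductase and steroid genes tested, 7 were lower and 6 higher (median -0.40). Akr1c14 stood at 11.2, 17.6 and 7.78 in Ikkb_cKO and 22.2 and 23.3 in WT (-1.02, edgeR adjusted p = 0.0362, with the call lost in 4 of 18 alternatives and a value of -1.95 without clusters 5, 17 and 30), and the other Akr1c genes stayed at or below 5.09. Reads shared between near-identical Akr1c genes make the split among them uncertain. Hsd17b10, a mitochondrial hydroxysteroid dehydrogenase, fell by 1.97 on the log2 scale (edgeR adjusted p = 0.00119), and Hsd17b11 was higher (1.36, edgeR adjusted p = 0.00340).

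Markers of other cells that could carry the 5 genes were counted in the same fibroblast-like cells. Neuron markers summed to 67.2, 49.0 and 37.4 CPM in Ikkb_cKO, with 7, 8 and 5 of 14 at 0, and to 20.6 and 24.8 in WT, with 3 and 2 at 0. Nefl alone made up 47.9, 23.1 and 2.72 of the Ikkb_cKO sums, and the other 13 markers summed to 19.3, 25.9 and 34.6 in Ikkb_cKO and 20.1 and 24.3 in WT. Perineurial markers, of the nerve sheath, summed to 31.6, 49.0 and 57.6 in Ikkb_cKO, with 5, 2 and 3 of 10 at 0, and to 11.9 and 12.2 in WT, with 0 and 1 at 0. The 1 of them tested, the glucose transporter gene Slc2a1, was higher, at 26.5, 40.6 and 37.4 in Ikkb_cKO and 4.41 and 5.13 in WT (log2 fold change 2.85, edgeR adjusted p = 0.00145). Slc2a1 alone made up most of each Ikkb_cKO sum, but not of the WT sums. The counts of called markers below stand against 18.2% lower and 17.6% higher over all genes tested. Schwann markers summed to 381, 381 and 708 in Ikkb_cKO and 360 and 346 in WT, with 0 higher and 2 lower of 6 tested. Hair follicle dermal papilla and sheath markers summed to 226, 300.2 and 664 in Ikkb_cKO and 693 and 755 in WT. Of 14 tested, 3 were lower and 3 higher (21.4% each), near the shares over all genes. By WT cluster these hair follicle markers summed to 996 and 1066.6 in cluster 5, 1636.5 and 1609.2 in cluster 17 and 790 and 1647.6 in cluster 30. They summed to 789 and 924 in cluster 16, where Nes was low, and to at most 244.1 in clusters 1, 13, 19 and 26. Skeletal muscle markers summed to 193, 222 and 188 in Ikkb_cKO and 401 and 429 in WT, with 3 of 11 lower. Of 7 pericyte and smooth muscle markers tested, 3 were lower (42.9%) and 0 higher. Kcnj8 was at -2.025 over all clusters (edgeR adjusted p = 0.00444) and at -3.01 without clusters 5, 17 and 30 (edgeR adjusted p = 0.00208). Acta2 and Tagln were lower over all clusters (-2.67 and -2.74, edgeR adjusted p = 0.0224 and 0.0121). Both turned direction without clusters 5, 17 and 30, to 0.88 for Acta2 (edgeR adjusted p = 0.427) and 1.58 for Tagln (edgeR adjusted p = 0.110). The part of these markers in the levels of the 5 genes was not tested.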

How the data were processed

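Ventral skin cells of 3 Ikkb_cKO and 2 WT libraries were captured with droplet 3' v2 chemistry, each library from 2 pooled mice, per the labels' protocols. The deposited matrices hold the authors' unnormalized UMI counts for every gene and barcode. The submitters' processing notes name Cell Ranger 1.3.0 and mm10, and the file headers name software 3.0.1 and format 2. Barcodes under 300 detected genes or above 10% mitochondrial UMIs were dropped, and doublets called by Scrublet within scanpy 1.11.5 were removed (54, or 0.509%). Cells were clustered on 2000 variable genes, 30 components and 15 neighbours (Leiden, resolution 1.0) and named by marker score, which left 86 cells in 2 clusters unnamed. No authors' annotation was used, so names are rebuilt.

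UMIs were summed per library and class and tested with edgeR 4.0.16 in R 4.3.3 (robust quasi-likelihood test, TMM, filterByExpr, Benjamini-Hochberg over all genes tested, threshold 0.05), checked on simulated data. DESeq2 1.42.0, other filters, resolutions, left-out libraries and cells thinned to 1000 UMIs were alternatives. Intervals are exact 95% Poisson intervals, a count of 0 allows 3 counts, and both cover counting error only. Each replicate is a pool of mice, so p-values measure the spread between pools.

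The 5 genes and all gene lists were chosen with earlier results of these data known. Named from each list were up to 4 called genes of smallest p with a mean log2 level of at least 3, all members of the same families, and for each of the 5 genes the 4 with the highest r of log2(level + 10) among genes with a mean of at least 10 CPM (counts per 1000000 UMIs). Promoter sequences are from RefSeq (GRCm38.p6), which matched 3 of the 5 genes.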

Additional observations from a re-analysis of the deposited data

How the results depend on the processing

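The log2 fold changes of the 5 genes in fibroblast-like cells stayed below 0 under every alternative that gave a value, from -7.90 to -4.51 for Nes, -7.52 to -3.92 for Map2 and -7.64 to -5.39 for Nxph3 (17 alternatives each), and from -4.53 to -3.15 for Crispld1 and -4.35 to -3.08 for Akr1c18 (18 each). The number of genes called in fibroblast-like cells was 3739, 1952 with cells thinned to 1000 UMIs, and 485 to 5519 with 1 library left out (485 without WT 2 and 512 without WT 1, where the lone WT library is assumed to vary like the others). Listed genes lower in Ikkb_cKO numbered 22, and 5 to 40 with 1 library left out. Listed genes higher numbered 31, 14 with thinned cells, 20 with Ikkb_cKO libraries 1 and 2 summed, 20 without clusters 5, 17 and 30, and 3 to 34 with 1 library left out. The settings with Ikkb_cKO libraries 1 and 2 summed and without clusters 5, 17 and 30 were chosen after seeing the data. With no filter on low counts 1 of the 5 genes was called in another class. The causes were not tested.

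Same-numbered libraries share only a number, since their deviations correlated at 0.02 (Ikkb_cKO 1 with WT 1) and -0.03 (Ikkb_cKO 2 with WT 2). With the replicate number as a replicate block, 5284 genes were called, and 41 listed genes were lower.

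Directions turned as follows, on the log2 scale. Without clusters 5, 17 and 30, Acta2 was at 0.88, Tagln at 1.58, Tpm2 at 0.12, Lmnb1 at 0.057, Map4 at 0.029, Sdc1 at 1.29, Frem1 at 1.06, Palld at 0.53 and Efhd1 at -0.14, and with thinned cells Map4 was at 0.11. Crispld2 was at -0.60 without Ikkb_cKO 3 (edgeR adjusted p = 0.00727) and at -0.59 with the replicate block (edgeR adjusted p = 0.0132). Map1s was at -0.10 without WT 1, Map6 at 0.20 without Ikkb_cKO 1 and 0.12 without Ikkb_cKO 2, and Map9 at -0.085 without Ikkb_cKO 2. With 1 library left out in turn, the ranges were -0.47 to 0.011 for Akr1c18 in myeloid-like cells, -0.60 to 0.95 for Crispld2, -0.10 to 0.32 for Map1s, -2.59 to 0.20 for Map6 and -0.085 to 1.10 for Map9. Akr1c18 in myeloid-like cells was at 0.011 without WT 2 (edgeR adjusted p = 0.996). Values of single genes, counts of single lists and cluster shares were scored together, each kind by its own rule. Under an alternative, 1208 of them stayed the same. For single genes this means the same direction and side of the threshold, or, with no test, a move of less than their error. Another 83 moved by more, 17 turned direction, 110 lost the call and 18 gained it. Of 38 called genes of the lists and families, 25 lost the call without WT 1 and 25 without WT 2, 14 of 36 without clusters 5, 17 and 30, and at most 6 under any other alternative. Depth limits the Ikkb_cKO levels of Nes, Map2 and Nxph3, which rest on 3 to 6 UMIs.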
